A study of Mus musculus with 16 samples.

Results

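The response of vanin-1 knockout liver to a fast was examined in 8 of the 16 arrays of a mouse liver study, the 4 arrays titled as fasted knockout and the 4 titled as fed knockout. Vanin-1 is the enzyme encoded by Vnn1, a pantetheinase on the cell membrane that releases cysteamine and pantothenate, the precursor of coenzyme A. The fasted knockout mice went 24 h without food and the fed knockout mice kept free access to chow, and both groups carried the vanin-1 null allele on a background labelled C57Bl/6J. The other 8 arrays came from wild type C57Bl/6J mice, 4 fasted and 4 fed, and entered the fit and the comparison of genotypes. All mice were male, aged 14 to 16 weeks and housed singly, and lights were on overnight, so the fast ran from one lights-off hour to the next. Separate animals are not stated for the arrays, and p-values therefore reflect sample-to-sample spread, which may be technical. How the null allele was made is not given in the labels, and whole liver was measured.

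Expression was read as log2 RMA levels, in which a step of 1 is a doubling of array signal. Probe sets naming exactly 1 gene were kept, and the probe set with the highest mean over the 16 arrays stood for its gene, which gave 18820 genes. Differences are fasted minus fed on the log2 scale, with the standard error (SE) of the limma fit. A gene was called where its Benjamini-Hochberg adjusted p lay below 0.05, and "rose" and "fell" are used of called genes. Array medians ran from 5.19 to 5.29, and a level below the highest of them was treated as dim. Arrays compress ratios at dim levels, so a difference against a dim group is a lower limit. Levels near the top of the range may be compressed too. Precision is limited by having 4 arrays a group. In both genotypes the fasted arrays held position rows A to D and the fed arrays rows E to H. Feeding and position row therefore cannot be told apart.

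A liver deprived of food turns from storing nutrients to releasing them. Fatty acids arriving from fat tissue are burned in mitochondria, peroxisomes and microsomes under the nuclear receptor PPAR alpha, partly into ketone bodies, while low insulin and high glucagon favour glucose release. Without insulin and dietary sugar, the SREBP and ChREBP factors that drive sterol and fatty acid synthesis lose activity. Coenzyme A, the product of the pathway that vanin-1 feeds, activates fatty acids for beta oxidation.

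Vnn1 itself was dim on all knockout arrays. It lay at 3.85, 3.84, 3.8 and 4.06 on fed KO 1 to 4 and at 4.26, 4.22, 3.67 and 3.77 on fasted KO 1 to 4. The groups overlapped, and the difference was 0.09 (SE 0.54, adjusted p = 0.949). In wild type it averaged 8.91 ± 1.61 (SD, n = 4) in fed and 10.81 ± 0.69 (SD, n = 4) in fasted liver. Hepatocyte markers were present throughout, with the mean of 10 between 13.03 and 13.15 on every knockout array and 0 of them called. These levels lie near the top of the range, so small differences between the groups may be hidden.

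Fasted and fed knockout liver differed in 1772 of the 18820 genes (9.42%). Of these, 852 were higher in fasted liver (4.53% of all genes) and 920 were lower (4.89%). Rises of at least 2-fold numbered 108 (0.574%) and falls 138 (0.733%), while 28 genes rose at least 4-fold (0.149%) and 23 fell as far (0.122%). Most changes were small, with a median of 0.48 among genes called higher and of -0.56 among genes called lower. The median over all genes was 0.02. The split of directions followed the scaling, with 972 higher and 800 lower when arrays were centred on their medians, and 926 and 901 after quantile normalisation.

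Abundant transcripts made up most of the calls. With genes split into 4 equal bins by mean level, 0.744% were called in the lowest bin, 4.25% and 12.9% in the middle bins and 19.7% in the highest. Above the median level 7.68% of genes rose and 8.65% fell, which is a closer yardstick for the liver-rich lists below. The fasted arrays lay wholly above the fed arrays for 1674 genes (8.89%) and wholly below for 1519 (8.07%). Of the called genes 1640 showed no overlap and 132 did overlap. Before adjustment 4165 genes (22.1%) had a p under 0.05.

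Fed KO 4 stood apart from the other fed arrays and was examined first. Over all genes the first principal component held 50.5% of the variance of the knockout arrays and set the fasted arrays (-25.6 to -16.5) against the fed ones (14.24 to 26.57). The second held 13.8% and set fed KO 4 (26.2) against fed KO 1 to 3 (-11.6 to -8.7). Among the fed knockout arrays, fed KO 4 was the isolated value for 291 genes on the high side and 284 on the low side by Dixon's criterion, together 3.06% of genes. For fed KO 1, 2 and 3 that share was 0.988%, 0.988% and 1.12%.

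High on fed KO 4 were transcripts of the hepatic acute phase, the secreted proteins that liver makes under cytokine signals. Saa2, a serum amyloid, lay at 12.06, 7.50, 7.87 and 13.34 on fed KO 1 to 4 and at 6.31, 9.99, 6.20 and 6.14 on fasted KO 1 to 4. Fed KO 1 and 4 were the highest, and fasted KO 2 lay between them and the other arrays. Lcn2, an iron-chelator carrier, lay at 12.30 on fed KO 4 against 6.04 to 7.97 on the other fed arrays and 6.32 to 7.42 on the fasted ones. Saa3 lay at 11.42 there against 6.18 to 8.41 on the other fed arrays, and Orm2, an orosomucoid, at 12.52 against 7.99 to 11.35. Fed KO 4 was the highest of the 8 arrays for all 4 genes. None of these was called, with adjusted p of 0.136 for Saa2, 0.152 for Saa3, 0.499 for Lcn2 and 0.193 for Orm2. Without fed KO 4 the difference of Lcn2 went from -1.27 to 0.09, and without fasted KO 2 that of Saa2 reached -3.98 and was called. The mean of 34 measured acute phase genes was 11.34 on fed KO 4, 10.30 on fed KO 1 and 9.77 to 9.86 on fed KO 2 and 3, against 9.65 to 10.05 on the fasted arrays.

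Other groups moved with it on that array. The mean of 13 neutrophil markers was 4.43 on fed KO 4 and 3.97 to 4.0 on fed KO 1 to 3, with S100a8 at 5.27 against 3.82 to 3.98, all of these levels being dim. Prtn3, a neutrophil protease outside that list, lay at 5.73 against 3.86 to 4.14. Replication genes averaged 6.01 there against 5.57 to 5.68, with the proliferation marker Mki67 at 6.77 against 5.36 to 5.6. The fasting difference of Mki67 was -0.98, -0.65 without fed KO 4, and not called without fasted KO 1. On the low side, the peroxisomal and omega oxidation list averaged 9.95 against 10.37 to 10.54, and subunits of oxidative phosphorylation 10.51 against 10.73 to 10.76. Cyp4a14, a microsomal fatty acid hydroxylase, lay at 7.53 on fed KO 4 against 10.16 to 10.74 on the other fed arrays. Their part in the fasting result was not tested beyond the refits without this array.

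The fit was repeated without fed KO 4. It then called 1528 genes, of which 1349 belonged to the 1772, while 423 calls were lost and 179 were gained. 0 of the 1772 genes changed sign, but for the 1640 whose arrays did not overlap no array left out could reverse it. Leaving out any other knockout array gave 1216 (fasted KO 1) to 1629 (fed KO 2) calls, so fed KO 4 was not the array with the greatest weight in the count. Without both fed KO 1 and 4, the 2 arrays with high Saa2, 839 genes were called and 775 of them belonged to the 1772, again with 0 changes of sign. Values without fed KO 4 are given below wherever its absence ended a call or moved a count or a called value by more than 1.5 times.

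**Figure D1:**
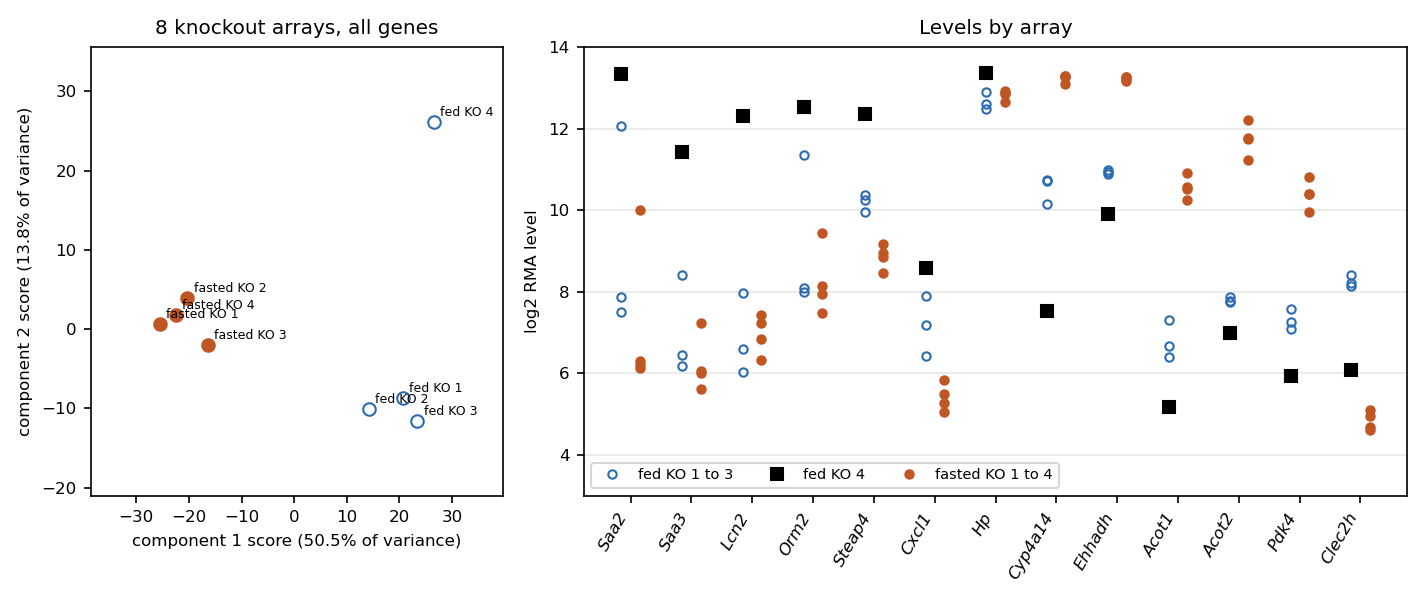
Left, scores of the 8 knockout arrays on the first 2 principal components over all genes, with fed arrays as open and fasted arrays as filled circles. Right, log2 RMA level of 13 genes on each array, with fed KO 4 as a black square, fed KO 1 to 3 as open blue and fasted KO 1 to 4 as filled circles. Fed KO 4 lies at 13.34 for Saa2 and at 7.53 for Cyp4a14, the highest and the lowest of its group.

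The strongest rise of any gene belonged to Gm15441, a long noncoding RNA that falls outside the rule for named genes and was singled out after its values were seen. It lay at 4.33, 5.59, 4.22 and 3.49 on fed KO 1 to 4 and at 11.31, 10.75, 11.29 and 10.98 on fasted KO 1 to 4. All fasted arrays showed a high level, and 3 of the 4 fed arrays were dim (difference at least 6.68, SE 0.58, adjusted p = 4.01e-06). In RefSeq (GRCm38.p6) this RNA overlaps Txnip, the gene of a thioredoxin-binding protein that restrains glucose uptake. Txnip also rose, from 9.30, 10.03, 9.75 and 9.31 to 10.64, 10.73, 10.26 and 10.69 (difference 0.98, SE 0.21, adjusted p = 0.00636). Whether the probe sets of the overlapping genes read each other's transcript was not tested.

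The 12 largest rises named by rule were led by Cidec, which coats lipid droplets and drives their fusion. Cidec lay at 5.0, 5.99, 5.44 and 5.4 on the fed arrays and at 10.04, 9.18, 9.65 and 10.23 on the fasted ones, 19.9-fold higher (difference 4.32, SE 0.36, adjusted p = 2.31e-06). Gadd45b, a stress and growth arrest gene, went from 4.89 to 5.13 in fed liver up to 7.81 to 8.86 in fasted liver (difference at least 3.46, SE 0.26, all fed arrays being dim). Lepr, the leptin receptor, was tight and dim in fed liver (4.92 to 5.16) and widely spread in fasted liver, at 7.08, 8.93, 6.26 and 8.36. Defb1, an antimicrobial beta-defensin, rose from 5.70, 5.96, 6.13 and 4.80 to 8.45, 8.41, 7.56 and 8.44 (5.95-fold, adjusted p = 1.14e-05). For none of these genes did fed and fasted arrays overlap, but they were taken for large called differences on the same arrays. Over all genes the fasted arrays lay wholly above the fed arrays for 8.89%.

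Hsd3b5, a steroid dehydrogenase of male mouse liver, fell furthest, 32.7-fold. Its fed levels were 11.06, 11.30, 11.40 and 10.95 and its fasted levels 5.31, 6.25, 7.41 and 5.62 (difference -5.03, SE 0.39, adjusted p = 1.10e-06). The fed arrays lay close together while the fasted ones were spread, with fasted KO 3 the least reduced. Clec2h, a lectin-like membrane protein, fell from 8.20, 8.15, 8.42 and 6.07 to 4.69, 4.95, 5.10 and 4.61, fed KO 4 being the low fed array. Cyp2c70, which makes the muricholic bile acids of mice, fell 8.35-fold, from between 12.14 and 12.64 to between 8.76 and 9.68. Slc22a7, an organic anion transporter, fell 6.54-fold with a wide fasted spread (6.38, 5.41, 7.34 and 6.06).

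**Figure D2:**
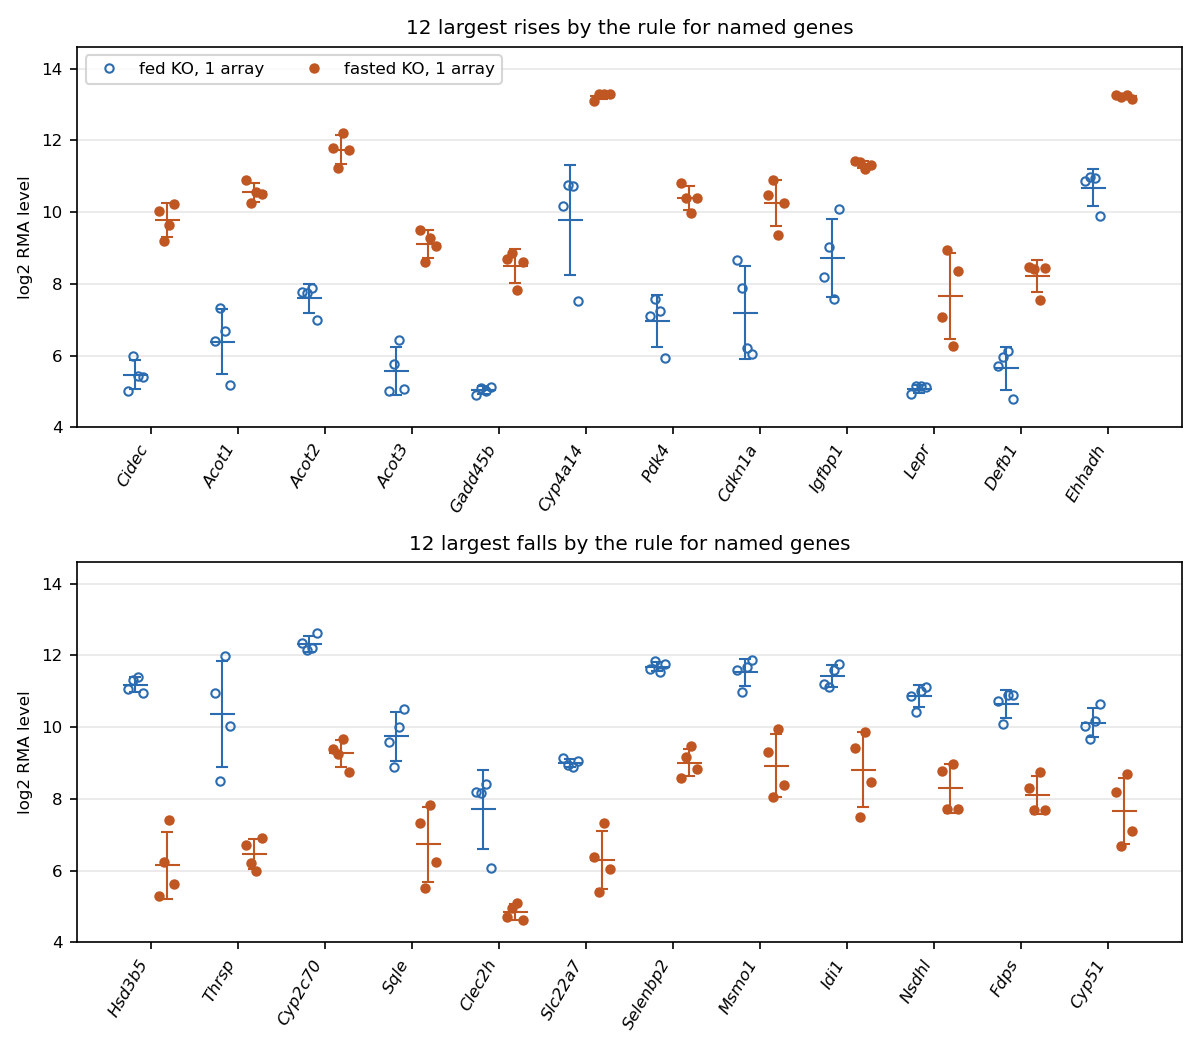
Log2 RMA level of the 12 largest rises (top) and 12 largest falls (bottom) taken by the rule for named genes, with fed arrays as open blue circles and fasted arrays as filled orange circles. Horizontal marks and bars are the mean and SD of 4 arrays. The groups overlap for none of the 24 genes, which were taken for large called differences on these arrays, so this adds no support. Over all genes the fasted arrays lie wholly above the fed arrays for 8.89% and wholly below for 8.07%. Cyp4a14 shows the low fed KO 4 value of 7.53.

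Fat oxidation rose across most of its steps. The carnitine shuttle and mitochondrial beta oxidation list had 14 of 21 measured genes higher and 0 lower, with a median of 0.73 against 0.02 for all genes. Carnitine carries fatty acids into mitochondria, and its importer Slc22a5 rose 4.22-fold, from 7.91, 8.44, 7.68 and 7.91 to 10.19, 10.01, 10.11 and 9.93 (adjusted p = 4.45e-05). Crat, which moves acetyl groups between carnitine and coenzyme A, rose 3.51-fold, and Hadhb, a subunit of the trifunctional enzyme, 2.13-fold. Cpt1a, the gatekeeper of mitochondrial entry, rose from 11.47, 11.78, 11.54 and 11.71 to 12.33, 12.27, 12.30 and 12.36, 1.61-fold. Acaa2, the thiolase at the last step, was an abundant member that did not pass (difference 0.03, SE 0.08, adjusted p = 0.852). Without fed KO 4 the list again had 14 genes higher, and without fed KO 1 and 4 it had 10.

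Peroxisomal oxidation shortens very long fatty acids, and omega oxidation begins with their hydroxylation. The list of both rose in 14 of 21 genes, with 1 lower and a median of 0.69. Ehhadh, the bifunctional enzyme of peroxisomes, rose 5.84-fold from 10.88, 10.98, 10.94 and 9.90 to 13.27, 13.20, 13.26 and 13.16 (adjusted p = 8.41e-07). The fasted arrays lay close together, while fed KO 4 was well under the other fed arrays. Cyp4a14 rose 10.9-fold, or by 2.69 on the log2 scale without fed KO 4 against 3.45 with it, and Cyp4a31 rose 5.39-fold. These Cyp4a genes have near-identical copies, so signal may be shared between them. Nudt7, which degrades coenzyme A inside peroxisomes, was the member that fell, from between 11.49 and 12.05 to 9.94, 10.12, 10.26 and 9.73 (difference -1.80, SE 0.14). Catalase (Cat) lay at 13.2 to 13.3 on all 8 arrays, with a difference of 0.00. Without fed KO 4 there were 12 genes higher and 1 lower, and without fed KO 1 and 4 there were 5 and 1.

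Acyl-CoA thioesterases split activated fatty acids back into free acid and coenzyme A. Of 12 measured, 5 rose and 1 fell. Acot1, the cytosolic form, rose 18.0-fold, from 6.40, 7.31, 6.68 and 5.17 to 10.90, 10.26, 10.56 and 10.51. Acot2, its mitochondrial neighbour, rose 17.6-fold, from 7.78, 7.74, 7.88 and 6.98 to 11.77, 11.22, 12.21 and 11.73 (adjusted p = 2.72e-05). These are close copies on the array as well, and fed KO 4 was the lowest fed array for both. The peroxisomal forms Acot3 and Acot4 rose 11.6-fold and 4.53-fold. Acot13 did not pass, with a difference of -0.06 (SE 0.10).

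Ketone body genes and fuel export moved the same way, 4 of 7 measured genes being higher and 0 lower. Fgf21, the fasting hormone of liver, was dim in fed liver at 4.67, 4.90, 4.93 and 4.69 and reached 7.0, 7.23, 6.81 and 6.96 in fasted liver (difference at least 2.20, SE 0.15, adjusted p = 3.60e-07). The arrays of each group lay close together. Slc16a1, the transporter that lets ketone bodies out of the cell, rose 2.58-fold. Bdh1, which turns acetoacetate into hydroxybutyrate, did not pass (difference 0.44, SE 0.20, adjusted p = 0.208).

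Uptake and activation were mixed, with 4 of 18 genes higher and 3 lower. Slc27a1, a fatty acid transport protein usually low in liver, rose 4.95-fold from 7.49, 7.48, 7.46 and 6.72 to 9.72, 8.89, 9.89 and 9.87. Cd36, the fatty acid translocase, rose from 9.45, 9.55, 9.64 and 9.29 to 10.55, 10.20, 11.06 and 10.22 (adjusted p = 0.00868). Acss2, which activates acetate for lipogenesis and is a SREBP target, fell 2.92-fold. The binding protein Fabp1 lay near 13 on all arrays with a difference of 0.09. Without fasted KO 1 or fasted KO 4 the list had 2 genes higher.

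Of 19 lipid droplet and lipolysis genes 9 rose, 0 fell and 10 were not called, with a median of 0.45. Plin5, which tethers droplets to mitochondria, rose 3.60-fold from 8.83, 8.57, 8.08 and 7.97 to 10.57, 10.11, 9.94 and 10.21. Pnpla2, the main triglyceride lipase, rose 1.99-fold, from 8.84 to 9.09 in fed liver up to 9.73 to 10.15 in fasted liver. The general droplet coat Plin2 rose 2.12-fold, and Cideb, the VLDL-linked relative of Cidec, did not pass (difference -0.05, SE 0.10). Without fed KO 4 the count was 8 and the median 0.32.

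Glycerolipid synthesis had 6 of 20 genes higher and 1 lower. Gpat3 and Gpat4 start triglyceride assembly, and Gpat3 rose 3.91-fold, from 5.85, 5.83, 5.93 and 6.15 to 7.93, 7.86, 8.03 and 7.80. Lpin2, a phosphatidate phosphatase, rose 1.91-fold, whereas Dgat2, which completes triglyceride, fell 1.38-fold. Among 18 genes of lipoproteins and lipase control 6 rose and 2 fell. Apoa4 rose 2.79-fold to between 12.87 and 13.23. Angptl4 rose 2.58-fold and Angptl8 fell 3.75-fold, from 10.72, 9.08, 9.71 and 8.68 to 7.21, 7.88, 7.84 and 7.64. Both of these secreted proteins restrain lipoprotein lipase, Angptl4 in the fasted state and Angptl8 in the fed state.

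**Figure D3:**
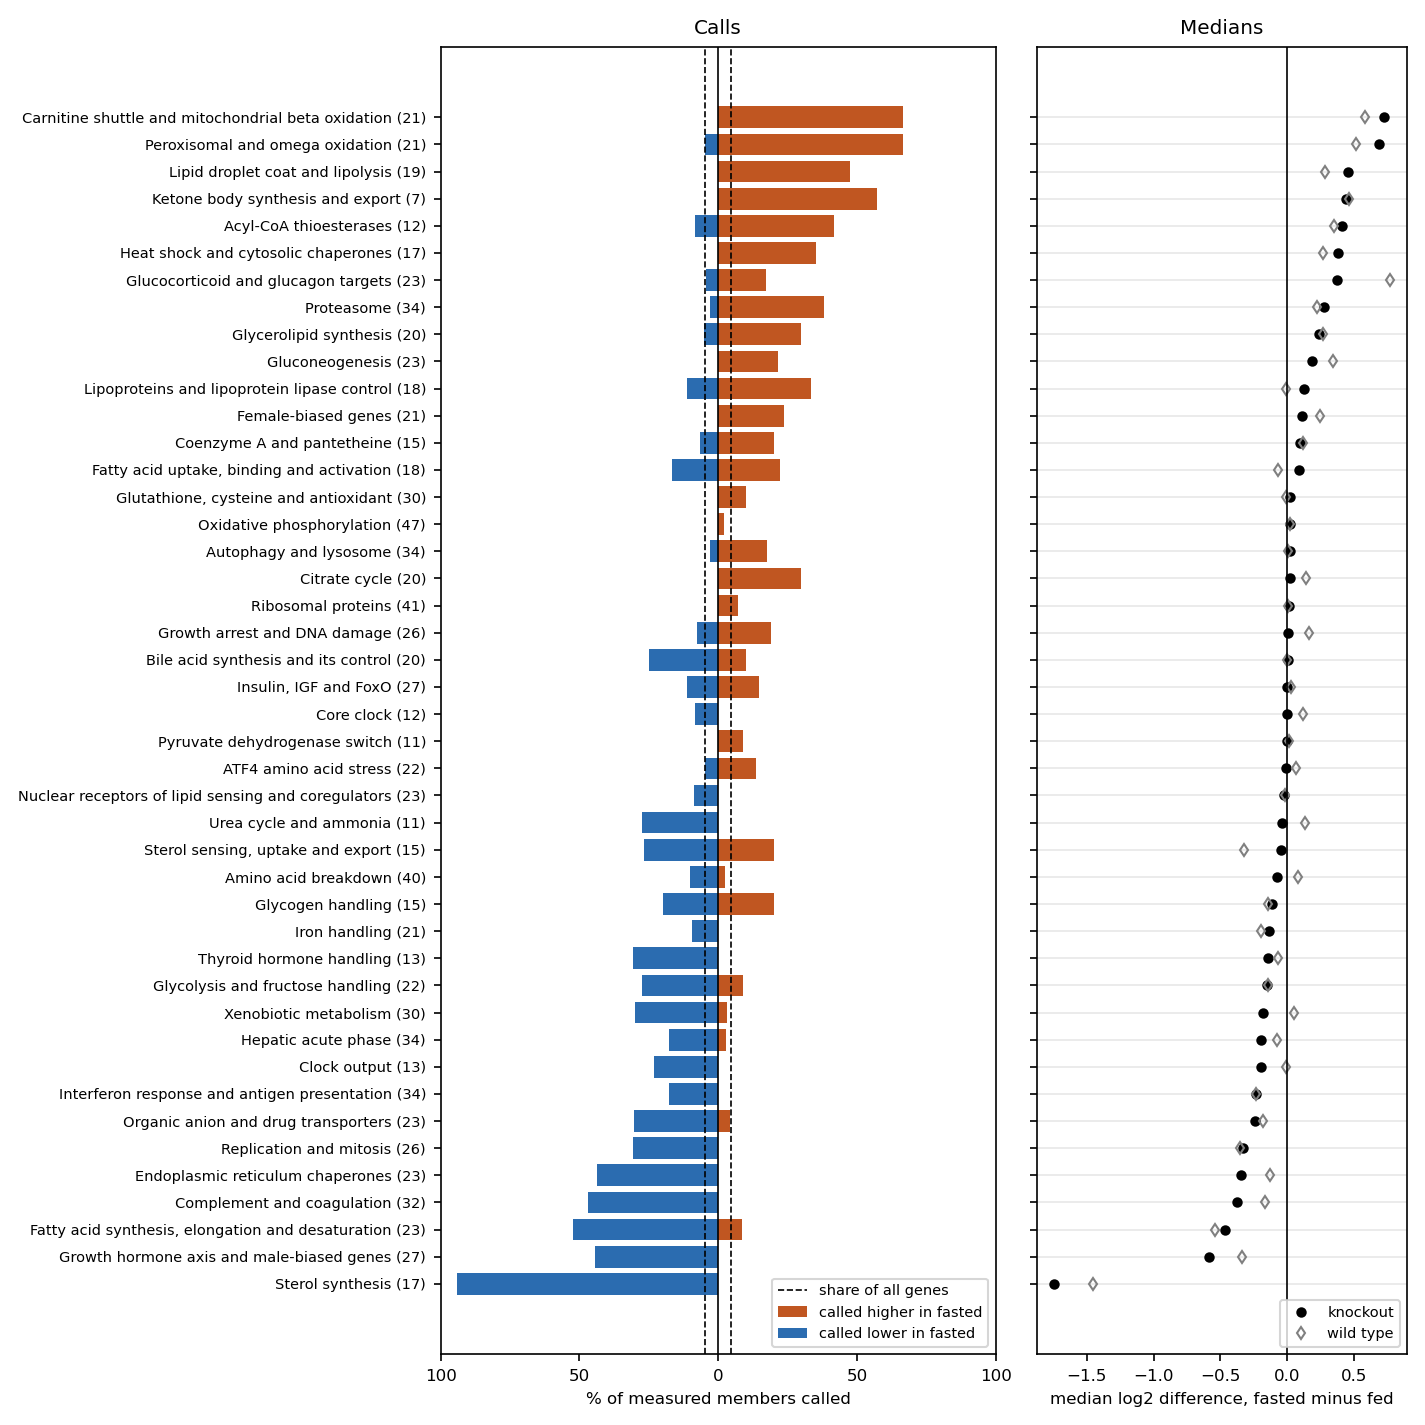
Left, share of the measured members of 44 role lists (number measured in brackets) called higher (orange, to the right) or lower (blue, to the left) in fasted knockout liver, in %, with dashed lines at the share of all genes, 4.53% and 4.89%. Right, median log2 difference of each list in knockout (filled circles) and wild type (open diamonds). Sterol synthesis lies lowest at -1.75 and mitochondrial beta oxidation highest at 0.73.

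Sterol synthesis was the most uniform of the falls. Of 17 measured enzymes 16 fell and 0 rose, with a median of -1.75. At the mevalonate end, Hmgcs1, which makes HMG-CoA in the cytosol, fell 2.69-fold and Mvk 3.83-fold. Mvd, which ends the mevalonate steps, fell by 2.11 on the log2 scale, with a fasted level near the array median. In the isoprenoid middle, Idi1 fell from 11.20, 11.13, 11.59 and 11.77 to 9.40, 7.50, 9.87 and 8.48 (difference -2.61, SE 0.35, adjusted p = 0.000176). Sqle, the squalene epoxidase, fell 8.10-fold from between 8.90 and 10.51 to 7.32, 5.52, 7.84 and 6.23. Of the enzymes that trim lanosterol, Msmo1 fell 6.10-fold, Nsdhl 5.93-fold, Cyp51 5.51-fold and Dhcr7 2.74-fold, while Ebp and Tm7sf2 fell 1.39-fold and 1.40-fold. The Tm7sf2 call was lost without fasted KO 2, fasted KO 4, fed KO 1 or fed KO 3. Hsd17b7 was the exception, at 10.53, 10.22, 10.70 and 10.73 in fed and 10.73, 10.34, 10.77 and 10.36 in fasted liver (difference 0.00, SE 0.15).

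The fasted arrays differed among themselves along this pathway. The list mean was 7.98 on fasted KO 2 and 8.15 on fasted KO 4, against 8.66 on fasted KO 1 and 8.97 on fasted KO 3. All lay below the fed arrays, of which fed KO 2 was lowest at 9.69 and the others ran from 10.22 to 10.45. With 1 array left out 15 or 16 enzymes stayed lower, and without fed KO 1 and 4 there were 14. The regulators moved alongside. Insig1, which holds SREBP in the endoplasmic reticulum and is itself a SREBP target, fell 4.34-fold, and Srebf1 fell 4.18-fold from 9.76, 9.01, 10.06 and 9.44 to 7.74, 7.48, 7.44 and 7.37. Srebf2 fell only 1.55-fold. Insig2, the insulin-repressed relative of Insig1, rose 1.76-fold, and the efflux pump Abca1 did not pass (difference -0.09, SE 0.13). Of 15 sensing, uptake and export genes 4 fell and 3 rose, and 1 rose without fed KO 1, 3 or 4, fasted KO 1, 2 or 4, or fasted WT 2.

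**Figure D4:**
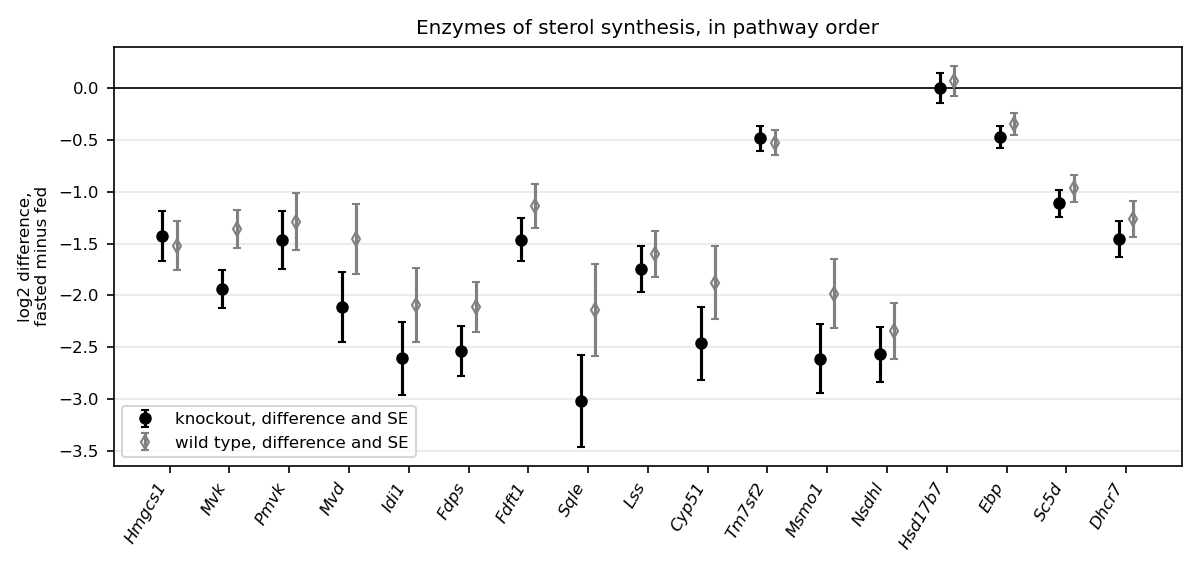
Log2 difference, fasted minus fed, of the 17 measured enzymes of sterol synthesis in pathway order, for knockout (filled circles) and wild type (open diamonds) liver. Bars are the SE of the limma fit on 16 arrays. Hsd17b7 lies at 0.00 in knockout liver and Sqle lowest at -3.02.

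Promoter sequence from RefSeq (GRCm38.p6) was set beside these falls, since the sterol enzymes moved together. The 250 bases before each annotated start were searched on both strands, and 14 of the 17 sterol enzymes had a window. The CCAAT box, the 5 letters CCAAT or ATTGG on the other strand, which nuclear factor Y binds next to SREBP sites, occurred in 14 of 14 windows. It occurred in 39.1% of 14749 measured genes with a window, in 51.1% of the 744 called lower and in 39.4% of the 698 called higher. Hsd17b7, which was not called, held it too. Among lists with more rises than falls, the box was in 7 of 10 thioesterase, 8 of 15 peroxisomal and 7 of 18 mitochondrial windows. The strongly rising Acot1, Acot2, Acot3 and Acot4 all held it. The classical sterol element TCACNCCAC was found in 1.21% of all genes and in 1 sterol enzyme, Hmgcs1. In all, 7 motifs were searched in 13 lists. Direct repeat 1, 2 copies of AGGNCA separated by 1 base and the classical PPAR motif, was found in 0 of 15 peroxisomal, 0 of 18 mitochondrial and 0 of 10 thioesterase windows, and in 0.373% of all genes. A match or its absence describes these letters only and says nothing of binding.

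The windows below show where the box sits in 5 of these enzymes, 4 that fell and Hsd17b7, which was not called. Each is given 5′ to 3′ along the gene and ends just before the start, with CCAAT or ATTGG in capitals and, in Hmgcs1, the sterol element too.
Idi1, chr13:8885356-8885605 (GRCm38.p6, plus strand): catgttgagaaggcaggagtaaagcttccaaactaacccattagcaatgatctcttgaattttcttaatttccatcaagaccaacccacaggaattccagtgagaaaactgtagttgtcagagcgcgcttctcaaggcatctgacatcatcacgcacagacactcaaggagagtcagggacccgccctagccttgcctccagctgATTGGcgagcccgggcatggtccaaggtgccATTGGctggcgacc
Hmgcs1, chr13:119690101-119690350 (GRCm38.p6, plus strand): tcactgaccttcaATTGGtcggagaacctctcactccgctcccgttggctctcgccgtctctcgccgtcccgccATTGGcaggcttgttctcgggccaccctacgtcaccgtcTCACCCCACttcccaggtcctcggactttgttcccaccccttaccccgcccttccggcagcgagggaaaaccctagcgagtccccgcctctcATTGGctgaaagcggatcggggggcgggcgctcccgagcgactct
Msmo1, chr8:64733579-64733828 (GRCm38.p6, minus strand): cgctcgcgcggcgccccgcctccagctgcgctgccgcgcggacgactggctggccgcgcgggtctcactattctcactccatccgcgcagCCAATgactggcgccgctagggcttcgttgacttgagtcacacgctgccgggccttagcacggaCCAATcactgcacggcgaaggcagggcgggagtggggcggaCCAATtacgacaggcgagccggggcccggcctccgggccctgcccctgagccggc
Cyp51, chr5:4104698-4104947 (GRCm38.p6, minus strand): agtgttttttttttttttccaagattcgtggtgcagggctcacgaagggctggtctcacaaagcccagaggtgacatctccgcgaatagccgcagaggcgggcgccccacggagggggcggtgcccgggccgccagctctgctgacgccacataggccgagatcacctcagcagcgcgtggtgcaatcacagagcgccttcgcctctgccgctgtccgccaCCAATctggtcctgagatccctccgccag
Hsd17b7, chr1:169969206-169969455 (GRCm38.p6, minus strand): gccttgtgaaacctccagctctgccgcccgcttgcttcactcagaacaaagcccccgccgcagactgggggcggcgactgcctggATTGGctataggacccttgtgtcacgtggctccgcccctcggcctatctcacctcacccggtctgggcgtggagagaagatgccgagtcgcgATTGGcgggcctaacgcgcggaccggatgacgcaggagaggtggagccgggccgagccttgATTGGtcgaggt
In all 5 the last copy of the box lay close to the start.

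Fatty acid synthesis fell in 12 of 23 genes and rose in 2, with a median of -0.46. Thrsp, a small activator of lipogenesis that answers to thyroid hormone and sugar, fell furthest of the list, from 10.95, 8.51, 11.97 and 10.03 to 6.71, 6.22, 5.99 and 6.90 (difference -3.91, SE 0.58). Its fed levels were widely spread, fed KO 2 being lowest and fed KO 3 highest. Mid1ip1, a relative that promotes polymerisation of acetyl-CoA carboxylase, fell 4.23-fold, Acly 2.67-fold and the synthase Fasn 3.20-fold. Scd1, the main desaturase, did not pass, with a mean of 13.16 ± 0.09 in fed and 12.89 ± 0.18 in fasted liver (SD, n = 4, limma adjusted p = 0.162). The elongases Elovl5 and Elovl2, which act on polyunsaturated fatty acids, rose 1.61-fold and 1.43-fold.

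Sugar handling was divided. In glycolysis and fructose handling 6 of 22 genes fell and 2 rose, and without fed KO 3 only 1 gene fell (3 without fasted KO 3 or fed KO 1, and 2 without fasted KO 1). Pklr, the liver pyruvate kinase and a ChREBP target, fell 2.83-fold from 10.60, 10.44, 11.49 and 10.04 to 8.89, 8.78, 9.45 and 9.44. Aldoa, the aldolase of muscle and other tissues, rose 1.62-fold, and Gapdh lay between 13.08 and 13.28 throughout. Pdk4, the kinase that shuts pyruvate out of mitochondria, rose 10.8-fold from 7.09, 7.58, 7.25 and 5.92 to 10.81, 10.40, 9.96 and 10.40 (adjusted p = 1.44e-05). It was the 1 of 11 genes of the pyruvate dehydrogenase switch to be called.

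Gluconeogenesis rose in 5 of 23 genes and fell in 0, with 3 without fasted KO 1 or fed KO 4 and 2 without fasted KO 4. G6pc, which frees glucose for export, rose 1.48-fold from 12.39, 12.44, 12.12 and 12.40 to 12.94, 12.96, 12.90 and 12.80 (adjusted p = 0.00807). Pck1, the textbook entry enzyme, was already at 12.49 to 12.83 in fed liver and at 12.87 to 13.04 in fasted liver (difference 0.28, SE 0.10, adjusted p = 0.0891), and of the fits without 1 array it was called in that without fed WT 3. Ppargc1a did not pass either (difference 0.84, SE 0.27, adjusted p = 0.0594), but was called without fasted KO 3, fasted WT 2 or fed KO 1. In glycogen handling Gaa, the lysosomal glucosidase, rose 1.62-fold, whereas the phosphorylase Pygl fell 1.88-fold and Ugp2, which feeds glycogen synthesis, 1.78-fold. Of its 15 genes 3 rose and 3 fell, and 1 rose without any 1 of fed KO 1 to 3, fasted KO 1 to 4 or fasted WT 1.

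Genes under insulin and FoxO control showed a small set of strong rises among 27 measured, 4 higher and 3 lower, or 1 lower without fasted KO 4. Igfbp1, which binds IGF in blood and is repressed by insulin, rose 6.13-fold from 8.18, 9.03, 7.57 and 10.10 to 11.43, 11.40, 11.20 and 11.31. Fed KO 4 held the highest fed level, and the fasted arrays lay close together. Igfbp2 rose 2.02-fold and the insulin receptor substrate Irs2 2.16-fold. Igfbp4 did not pass (difference -0.06, SE 0.07). Igfals, which stabilises circulating IGF, fell 1.52-fold, a call lost without fasted KO 4 or fed KO 3.

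Male-biased and growth hormone genes fell in 12 of 27 cases and rose in 0, with a median of -0.59. The pulsatile growth hormone of males keeps such genes high in liver. Besides Hsd3b5, Selenbp2 fell 6.38-fold from 11.63, 11.83, 11.53 and 11.75 to 8.59, 9.17, 9.46 and 8.82, and Keg1 fell 3.23-fold. Fasted KO 3 was the least reduced array for all 3 of these genes, and for the list mean (9.56 against 9.01 to 9.27). The abundant urinary protein gene Mup20 lay between 13.02 and 13.28 on all arrays (difference -0.11, adjusted p = 0.403). Of 21 female-biased genes 5 rose and 0 fell, with 3 higher without fasted KO 1, fasted KO 4 or fed KO 4. Cyp17a1, a steroid hydroxylase, rose 4.74-fold from 9.14, 8.07, 8.58 and 9.82 to 11.48, 11.43, 10.56 and 11.12, and 2 of the other 4 were the thioesterases Acot3 and Acot4. In the thyroid hormone list 4 of 13 genes fell, among them Thrsp and the receptor Thrb (1.32-fold), or 2 without fasted KO 1, fasted KO 2, fed KO 1 or fed KO 3.

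Among clock genes 8.33% of the core list and 23.1% of the output list were lower. Of all genes 4.89% fell, and of those above the median level 8.65%. With lists this short the counts are not read as a result about the clock. Of 12 core clock genes 1 fell, Cry2, a repressor, from 8.00 to 8.12 down to 7.29 to 7.52 (adjusted p = 0.0116). Arntl, the activating partner of Clock, lay at 7.82, 7.55, 6.76 and 5.87 on fed KO 1 to 4 and at 7.87, 8.33, 7.49 and 7.69 on the fasted arrays (adjusted p = 0.204). Npas2, a relative of Clock, ran in the same order over the fed arrays, at 7.36, 6.91, 5.85 and 4.73, and was called without fed KO 1. Arntl and Npas2 were singled out after their values were seen. Without fed KO 1 or fed WT 3, 3 core clock genes fell. Among 13 output genes 3 fell, of which Bhlhe40, a repressor that also answers to insulin, fell 2.95-fold from 9.08, 8.62, 9.21 and 8.83 to 6.89, 7.35, 8.12 and 7.14. Bhlhe41, its relative, fell from 5.4, 5.84, 6.77 and 6.32 to 4.59, 3.99, 4.85 and 4.71 (difference -1.55, SE 0.35), the fasted arrays being dim. The E-box CACGTG, the letters bound by clock activators, occurred in 4 of 11 output promoters and in 8.19% of all genes. The window of Bhlhe41 is given with the E-box in capitals.
Bhlhe41, chr6:145865421-145865670 (GRCm38.p6, minus strand): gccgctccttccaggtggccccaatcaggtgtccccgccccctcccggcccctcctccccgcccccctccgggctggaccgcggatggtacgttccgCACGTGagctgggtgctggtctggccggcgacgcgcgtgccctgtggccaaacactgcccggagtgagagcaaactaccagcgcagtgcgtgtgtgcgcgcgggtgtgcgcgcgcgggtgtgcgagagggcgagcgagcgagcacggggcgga

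Protein folding in the endoplasmic reticulum was lower, in 10 of 23 genes, with 0 higher and a median of -0.35. This list depended on single arrays. It had 4 genes lower without fed KO 4 or fasted KO 1, 5 without fed KO 3 or fasted KO 4, and 6 without fasted KO 2, and fed KO 4 carried the highest mean (10.87 against 10.42 to 10.69). Sec61b, a subunit of the channel through which secreted proteins enter, fell 2.40-fold from 8.33, 8.17, 8.65 and 8.50 to 6.90, 7.09, 7.36 and 7.25 (adjusted p = 3.36e-05). Pdia6, a disulfide isomerase, fell 2.07-fold from 10.08, 10.45, 10.47 and 10.77 to 9.25, 9.12, 9.81 and 9.40. Sdf2l1, a partner of the chaperone BiP that the rule did not name, fell 2.37-fold and lost its call without fed KO 3 or 4 or fasted KO 1, 2 or 4. Hspa5, which encodes BiP, did not pass (difference -0.13, SE 0.15).

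The CCAAT box, part of the ER stress element, was in 16 of 19 of these promoters, against the 39.1% of all genes. The windows of the 2 folding genes that fell over 2-fold and held the box are shown with the box in capitals.
Sdf2l1, chr16:17132384-17132633 (GRCm38.p6, minus strand): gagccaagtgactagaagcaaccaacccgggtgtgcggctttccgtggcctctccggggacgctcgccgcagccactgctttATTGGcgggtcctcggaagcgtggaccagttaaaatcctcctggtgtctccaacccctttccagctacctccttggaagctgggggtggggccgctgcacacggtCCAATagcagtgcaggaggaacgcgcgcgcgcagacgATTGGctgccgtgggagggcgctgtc
Pdia6, chr12:17266339-17266588 (GRCm38.p6, plus strand): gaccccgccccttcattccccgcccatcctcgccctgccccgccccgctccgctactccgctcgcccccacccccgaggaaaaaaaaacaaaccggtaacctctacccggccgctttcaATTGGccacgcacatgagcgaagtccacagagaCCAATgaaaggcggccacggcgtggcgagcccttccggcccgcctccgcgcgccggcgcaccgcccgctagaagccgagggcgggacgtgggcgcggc
Complement and coagulation factors, which pass through the same compartment, held the box in 5 of 25 windows (20.0%).

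These plasma proteins fell as well, in 15 of 32 measured genes with 0 higher and a median of -0.38. F11, a factor of the intrinsic clotting pathway, fell 3.13-fold from 10.03, 10.03, 9.78 and 10.06 to 8.31, 8.41, 8.49 and 8.10 (adjusted p = 9.22e-06). Mbl2, a mannose-binding lectin that starts complement, fell 1.85-fold, and Masp1, its protease, 1.38-fold. The fibrinogen chain Fgg stayed at 13.1 to 13.6 and did not pass (adjusted p = 0.215). Without fed KO 4 there were 12 genes lower, and without fed KO 1 and 4 there were 5. Cytosolic chaperones moved the other way, with 6 of 17 higher and 0 lower, or 3 without fasted KO 1, 2 or 4 or fed KO 1. Dnajb1, a heat shock factor target, rose 1.81-fold from 7.58, 7.58, 7.52 and 7.29 to 8.25, 7.98, 8.80 and 8.34.

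Protein breakdown was higher in part. Of 34 proteasome genes 13 rose and 1 fell, with a median of 0.28 and rises of under 2-fold. Psmd4, a ubiquitin receptor of the proteasome, rose 1.75-fold from 9.07, 9.27, 9.22 and 9.13 to 10.19, 9.67, 9.91 and 10.15, and Psma7 1.38-fold. The 1 gene lower was Psme2, an interferon-induced activator subunit (1.43-fold). The count was 7 without fasted KO 1 or 3 and 8 without fasted KO 4 or fed KO 1. Of 34 autophagy and lysosome genes 6 rose and 1 fell. Map1lc3b, the membrane tag of autophagosomes, rose 1.41-fold from 10.57, 10.65, 10.54 and 10.60 to 11.09, 11.10, 11.05 and 11.09, and the cargo receptor Sqstm1 1.29-fold.

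Among 40 enzymes and regulators that degrade amino acids, 1 rose (2.5%) and 4 fell (10%), or 7 fell without fed KO 4. The share that fell was above the 4.89% of all genes and near the 8.65% of genes above the median level. The count in the main fit is therefore not read as a result about this pathway. Prodh, which starts proline breakdown, fell 2.11-fold from 10.89, 10.27, 10.78 and 10.24 to 9.49, 9.60, 9.13 and 9.66, and Haao of the kynurenine pathway by 0.58 on the log2 scale. In the ATF4 list, the response to missing amino acids, 3 of 22 genes rose and 1 fell, and 1 rose without fasted KO 1, fasted KO 4 or fed KO 1. Of its risers Fgf21 is described above, and Sesn2, a brake on growth signalling, had a difference of 0.63 and lost its call without fed KO 1, 3 or 4 or fasted KO 1, 2 or 4. Mat1a, which makes S-adenosylmethionine, rose 1.25-fold. In the urea cycle 3 of 11 genes fell, including Otc, the ornithine transcarbamylase, by 1.44-fold, while Cps1 at 12.65 to 13.16 did not pass. The citrate cycle rose in 6 of 20 genes, such as Mdh2 (1.31-fold), and fell in 0.

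Bile acid genes fell in 5 of 20 cases and rose in 2, with 3 lower without fasted KO 1 or 4. Next to Cyp2c70, Akr1d1, the steroid reductase of bile acid synthesis, fell 2.06-fold and the bile salt export pump Abcb11 1.62-fold. Abcb4, which exports phospholipid into bile, rose 1.75-fold from 10.84, 11.17, 10.78 and 10.92 to 11.94, 11.56, 11.76 and 11.68. Cyp8b1, which makes cholic acid, rose 1.94-fold, but fed KO 4 lay at 10.49 against 11.38 to 11.54 and without it the call was lost (difference 0.72, adjusted p = 0.0539). Drug metabolism fell in 9 of 30 genes and rose in 1, or 3 without fed KO 1. Cyp4f14, a leukotriene and fatty acid hydroxylase, fell 2.80-fold from 11.44, 11.07, 11.29 and 10.80 to 9.55, 9.87, 9.94 and 9.31, and Cyp2e1 lay at 13.3 to 13.4 on all arrays. Of 23 organic anion and drug transporters 7 fell and 1 rose.

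Growth arrest genes carried some of the strongest single rises in a list with 5 of 26 higher and 2 lower, or 4 lower without fasted WT 3. Cdkn1a, the p21 inhibitor of cell cycle kinases, rose 8.26-fold from 8.67, 7.89, 6.20 and 6.03 to 10.48, 10.89, 9.36 and 10.26 (adjusted p = 0.00103). Gadd45a fell while Gadd45b rose, from 5.61, 6.15, 6.87 and 6.17 to 4.60, 4.90, 5.17 and 5.13. Replication and mitosis genes, mostly dim, fell in 8 of 26 cases and rose in 0. Top2a lay at 4.61, 4.59, 4.94 and 5.76 in fed and 3.90, 3.50, 4.12 and 4.05 in fasted liver. That count was 3 without fasted KO 1 and 5 without fasted KO 3, fasted WT 1, fasted WT 2, fed KO 3 or fed WT 1. It was 3 without fed KO 1 and 4.

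In the acute phase list 6 of 34 genes fell and 1 rose. Steap4, a metalloreductase of inflamed liver, fell from 9.95, 10.24, 10.36 and 12.35 to 8.86, 8.45, 9.17 and 8.96 (difference -1.87, SE 0.40), and by 1.33 without fed KO 4 (adjusted p = 0.00407). Saa4, the constitutive serum amyloid, fell 2.20-fold and Cxcl1, a neutrophil attractant, 4.32-fold. Socs3, a brake on cytokine signalling, fell from 6.51, 7.83, 7.63 and 7.67 to 5.53, 5.87, 6.50 and 6.17. Il1rn, a blocker of interleukin 1 signalling, was the 1 riser, and fed KO 4 (6.76) lay above all fasted arrays (6.50 to 6.74). Its call was lost without any 1 of the other 7 knockout arrays. Without fed KO 4, 5 genes were lower and 3 higher. Of 34 genes of the interferon response and antigen presentation 6 fell, with the interferon factor Irf1 2.05-fold and the immunoproteasome subunit Psmb10 1.98-fold lower, and 10 fell without fasted WT 4.

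Coenzyme A genes, the ones closest to the missing enzyme, gave 3 of 15 higher and 1 lower. Vnn3, the other pantetheinase gene of mouse liver, rose 2.31-fold from 8.47, 8.28, 8.73 and 8.12 to 9.70, 9.43, 9.63 and 9.68 (adjusted p = 0.000598). Slc25a42, the mitochondrial coenzyme A carrier, rose 1.54-fold. Nudt7, described above, was the member that fell. Pank1, which controls the first step of synthesis, did not pass (difference 0.36, SE 0.11, adjusted p = 0.0509), but was called without fasted KO 2 or fed WT 4. Srxn1, which repairs oxidised peroxiredoxins, rose 2.10-fold and led a glutathione and antioxidant list with 3 of 30 genes higher and 0 lower.

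Several gene groups had a median near the level of all genes. Of 47 subunits of oxidative phosphorylation 1 rose and 0 fell (median 0.02). Of 41 ribosomal proteins 3 rose and 0 fell (median 0.01), and without fasted KO 1, fasted KO 2 or fed KO 3 the count was 0 and without fed KO 4 it was 1. Among 23 nuclear receptors and coregulators of lipid sensing 2 fell, Nr3c1 (1.30-fold), the glucocorticoid receptor, and Nr5a2, whose call was lost without fasted KO 1, fasted KO 4 or fed KO 4. Hnf4a, a master factor of hepatocytes, lay between 12.08 and 12.25 on all knockout arrays. Of 21 iron handling genes 2 fell and 0 rose.

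Markers of other cells in the liver were listed to see what else moved with feeding. Over all genes 4.53% rose and 4.89% fell, and above the median level 7.68% and 8.65%. Counts of 1 in such short lists are therefore not read as a result about the cells. In whole liver, fewer cells of a type and less RNA per cell cannot be told apart. Of 17 Kupffer cell and macrophage markers 2 fell, Folr2 from 8.69, 8.20, 8.51 and 8.36 to 7.27, 7.85, 8.04 and 7.41, and Msr1, whose call was lost without fasted KO 4. The median difference of this list was -0.32, with 15 markers negative and 2 positive. The list mean was 8.29 to 8.64 on fed and 7.84, 8.47, 8.38 and 7.98 on fasted arrays, so the groups overlapped, and without fasted KO 2 there were 4 lower. Of 19 stellate cell and fibroblast genes 3 fell, with the collagen gene Col3a1 down from 6.33 to 6.82 to 5.70 to 6.00, and without fed WT 2 there were 6. Of 13 neutrophil markers 1 rose (Camp, 0.26 on the log2 scale), and of 4 erythroid markers 1 fell (Alas2, by 0.80). Of 17 lymphoid markers 1 fell (Cd4, by 0.41), of 17 sinusoidal endothelial markers 1 rose (Bmp2, 1.47-fold), and of 7 cholangiocyte markers 0 were called. Car3 was the 1 of 10 adipocyte markers that fell (3.02-fold, from 13.04 to 13.28 down to 11.07 to 12.37), and hepatocytes of male mice also make it. Pancreatic enzyme genes were dim on all 8 knockout arrays (list mean 3.73 to 3.85, 0 of 14 called). In wild type their median fasting difference was 1.02 (0 of 14 called), and the median difference of responses was -1.04. A group mean can be moved by 1 array, and fasted WT 4 was the isolated high value of its group for 25 genes with a range of over 1. Whether it carried the wild type difference of the pancreatic genes was not tested.

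Wild type liver gave the measure of what knockout liver shared. Wild type fasting called 629 genes higher (3.34%) and 803 lower (4.27%). Of the 1772 genes called in knockout, 1717 had the same sign in wild type and 55 the opposite, and the genotypes share no array. Position row differed with feeding in both genotypes alike, so matching signs cannot be assigned to feeding alone. The share of matching signs over all genes was not tested. The test of the difference between the fasting responses called 0 of 18820 genes (0%), and 924 genes had an unadjusted p under 0.05 (4.91%). It called 1 gene without fasted KO 3 and 0 in the other settings run, among them the fit without fasted WT 4. That array was the isolated high value of its group for 25 genes with a range of over 1, the most of any array.

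Median differences of the genes called in knockout were 0.48 and -0.56 in knockout and 0.32 and -0.41 in wild type, but these genes were selected on the knockout values. The 10 genes with the smallest p for a difference of responses all had an adjusted p of at least 0.894. Ctse, an aspartic protease, rose in knockout from 6.57, 5.09, 6.19 and 6.07 to 8.47, 8.72, 8.17 and 8.54 (difference 2.49) and differed by 0.33 in wild type. Krt23, a keratin of stressed liver, rose from 4.10, 5.14, 4.66 and 4.30 to 6.84, 6.60, 6.89 and 6.33 (difference at least 2.12, all fed arrays being dim) and differed by 0.49 in wild type. Glucocorticoid and glucagon targets had 4 of 23 genes higher in knockout and 13 in wild type, with medians of 0.37 and 0.77. In the test of the difference 0 of them were called. This list shares Lcn2, Mt1 and Mt2 with the acute phase list, and fed KO 4 held its highest fed mean (9.83 against 9.09 to 9.56). The part of that array in the contrast of counts was not tested.

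**Figure D5:**
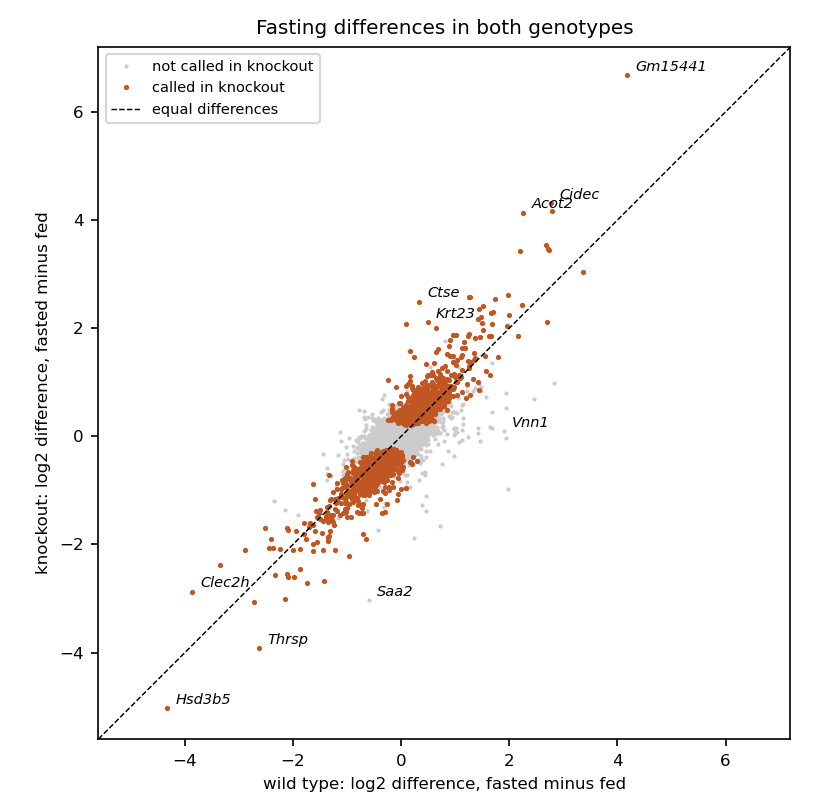
Log2 difference, fasted minus fed, of 18820 genes in wild type (horizontal) and knockout (vertical) liver, with the 1772 genes called in knockout in orange and the rest in grey. The dashed line marks equal differences. Gm15441 lies at 4.18 and 6.68, Hsd3b5 at -4.33 and -5.03, and no gene was called for a difference between the responses.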

How the data were processed

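Whole liver RNA of 16 samples, 4 per group, was read on whole-transcript arrays. The authors deposited log2 values made by RMA, per the submitters' processing notes. RMA's version and the array's genome build were not given in the sources used here. RMA corrects background, equalises arrays and sums probes, so it compresses ratios of dim genes. Of 35556 probe sets 21218 named 1 gene, 1881 named several and 12457 were unnamed and were left out, which gave 18820 genes. Genes with near-identical copies may share probes.

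Group means of all 4 groups were fitted with limma 3.58.1 in R 4.3.3 (12 residual and 4.66 prior degrees of freedom), with Benjamini-Hochberg adjustment over all 18820 genes and a threshold of 0.05. The contrasts were fasted minus fed in knockout, the same in wild type, and their difference. On data simulated for the knockout comparison over 18820 genes, 72% of 50 genes changed 1.5-fold and 100% of those changed 2-fold were called, with 4 false calls. The simulated noise was normal and independent between genes, without array-wide shifts such as that of fed KO 4. These shares therefore do not carry over to the measured genes. Npas2, for example, differed by 1.28 on the log2 scale and was not called (limma adjusted p = 0.111).

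The members and the gene lists (44 by role, 10 by cell type, 1046 of 1179 genes measured) were chosen with earlier results of these data known. The rule named Vnn1 and, among called genes above the median level, the 12 largest rises and 12 largest falls without predicted genes. From each role list it took up to 4 called members in the main direction, up to 2 in the other and the most abundant uncalled one. It further took the 10 smallest p-values for the difference of responses, 6 acute phase genes and the cell type markers. Of the acute phase genes Saa1 was not measured, and the text prints only a part of the genes named by the rule. A few further members, such as Cpt1a, Fasn, Pck1, Ppargc1a, Arntl, Npas2, Sesn2, S100a8, Prtn3, Mki67 and Sdf2l1, were singled out after their values were seen.

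Replicate numbers in the titles were not treated as pairs. Deviations of same-numbered knockout arrays correlated between -0.045 and 0.047, and those of other-numbered ones between -0.113 and 0.104. Values this low show no pairing but cannot exclude it. Promoter windows came from RefSeq (GRCm38.p6). Alternatives left out arrays, changed scaling, filters, priors and thresholds, or added blocks and array weights.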

Additional observations from a re-analysis of the deposited data

Results flagged for a closer look

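In groups of 4 arrays, 168 sets of values were checked for an array far from the other 3, and 11 stood out, 5 of them list means. Chance alone gives about 1 in 20.

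On fed KO 4 the neutrophil markers averaged 4.43 against 3.97 to 4.0 on fed KO 1 to 3, and oxidative phosphorylation genes 10.51 against 10.73 to 10.76. The same array was low for Ehhadh, a peroxisomal enzyme, at 9.90 against 10.88 to 10.98. It was also low for Acot2, a thioesterase, at 6.98 against 7.74 to 7.88, and for Clec2h at 6.07 against 8.15 to 8.42.

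Other arrays stood out less often. Fed KO 2 was high for ketone body genes, at 8.29 against 8.23 to 8.24, and fed KO 1 for erythroid genes, at 5.97 against 5.89 to 5.90. Fasted KO 1 was low for replication genes, at 5.22 against 5.33 to 5.34, and for Cyp4a14, at 13.10 against a common 13.28. Fasted KO 3 was low for Defb1, at 7.56 against 8.41 to 8.45. Fasted KO 2 was high for Saa2, at 9.99 against 6.14 to 6.31.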

How the results depend on the processing

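The main fit called 1772 genes, and no gene called in knockout changed sign under any setting run. For the 1640 called genes whose fasted and fed arrays did not overlap, leaving out arrays could not reverse the sign. Leaving out 1 array gave 1216 to 1861 calls, and 0 to 1 for the difference of responses, the 1 being without fasted KO 3. Over the gene lists together, 276 calls became 205 to 284, and the 7 acute phase calls became 4 to 8. The labels give fasted KO 1, fed WT 2 and fed KO 4 names that end in 2, unlike the array names used here. Without those arrays there were 964 calls (182 in the lists), and without fed KO 1 and 4 there were 839 (164). At an adjusted p below 0.01 there were 879 (176 in the lists, 3 in the acute phase), and with a 1.5-fold minimum 731 (176). A stricter threshold leaves fewer calls by construction, and for the arrays left out the cause was not tested. The fit with the replicate block called 1658 genes, and 0 for the difference of responses.

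Scaling turned the split of directions. It was 852 higher and 920 lower as reported (48.1% higher), 972 and 800 (54.9%) with arrays centred on their medians, and 926 and 901 (50.7%) after quantile normalisation. Of 188 called genes named by the rule, 145 were called in every fit without 1 array. Over such fits of all 237 named genes, called or not, 198 of 3792 values lost a call, 9 gained one and 0 reversed. Over other settings 158 of 3303 lost a call, 19 gained one, 5 moved and 0 reversed. Signal over background limits dim genes: in the lowest of 4 bins by level 0.744% were called.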
